A study of Mus musculus with 25 samples.

Results

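The genes described here are the 9 named entries of the deposited expression table that handle glutamate, GABA, glycine, glutamine and cystine in astrocytes, chosen by symbol out of 54429 gene entries and followed over all 25 libraries and 9 groups. They are the glutamate transporters Slc1a2 and Slc1a3, the GABA transporter Slc6a11, the glycine transporter Slc6a9, the glutamine transporter Slc38a3, the cystine/glutamate exchanger Slc7a11, and the enzymes Glul, Glud1 and Abat. The rule names them by symbol and uses no measured value.

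The series concerns astrocyte maturation in culture and growth factor signalling. All 25 libraries came from cortical astrocytes of C57BL/6J mice, which had been captured on plates coated with an antibody to HepaCAM, an adhesion protein of astrocytes, and then grown in vitro, with no genetic change named. An EGFR inhibitor (3 libraries) was compared with its own DMSO control (3), and a P53 inhibitor (3) with its own DMSO control (3), each inhibitor having been added on day 2 in vitro. HBEGF, a ligand of the EGF receptor, was either supplied (2) or withdrawn (2) from the day of preparation, and cultures listed by age alone were collected on day 2, day 7 and day 14 (3 each). The names and doses of the inhibitors, the harvest day of the treated cultures, the age of the mice, and whether replicates came from separate animals or cultures are unstated in the sources used here. The p-values therefore measure the spread between these libraries, which may be technical.

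Astrocytes clear glutamate from the space around synapses through the sodium-driven transporters encoded by Slc1a2 (GLT-1) and Slc1a3 (GLAST). Inside the cell, glutamine synthetase (Glul) joins glutamate to ammonia, and the glutamine leaves through carriers such as SNAT3 (Slc38a3) to refill neurons, while glutamate dehydrogenase (Glud1) feeds glutamate carbon into the tricarboxylic acid cycle. GABA is taken up by GAT-3 (Slc6a11) and broken down by GABA transaminase (Abat), glycine is taken up by GlyT1 (Slc6a9), and the xCT exchanger (Slc7a11) trades intracellular glutamate for extracellular cystine, the source of cysteine for glutathione. Many of these genes are known to rise as astrocytes mature in the postnatal brain.

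The sequences just upstream of a RefSeq transcription start are shown for 2 members, Slc7a11 because its time course differed from that of the other members and Slc6a11 because it fell in both EGF receptor comparisons and rose with time in culture. They come from RefSeq (GRCm38.p6), 5′ to 3′ on the strand of the gene, 250 bases ending at the base before the start. The Slc7a11 window lies within the RefSeq span of that gene, which reaches base 50499087, and so precedes an inner start. RefSeq windows were at hand for 7 of the 9 members, Slc38a3 and Abat having no entry. Capitals mark TGATGNAA, an amino acid response element, in Slc7a11 (chr3:50443614-50443863, minus strand), and the GC box GGGCGG in Slc6a11 (chr6:114130991-114131240, plus strand).
Slc7a11: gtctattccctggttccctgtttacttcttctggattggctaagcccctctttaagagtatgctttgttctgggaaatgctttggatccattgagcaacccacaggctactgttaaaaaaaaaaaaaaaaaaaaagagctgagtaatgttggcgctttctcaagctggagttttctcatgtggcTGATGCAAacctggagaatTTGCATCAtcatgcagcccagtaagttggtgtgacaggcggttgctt
Slc6a11: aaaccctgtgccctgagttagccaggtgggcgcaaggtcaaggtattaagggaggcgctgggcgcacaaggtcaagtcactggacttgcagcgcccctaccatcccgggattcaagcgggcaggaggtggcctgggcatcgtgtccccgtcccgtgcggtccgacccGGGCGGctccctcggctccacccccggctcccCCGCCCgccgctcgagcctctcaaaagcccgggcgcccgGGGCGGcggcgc
Slc7a11 held 2 copies of TGATGNAA on opposite strands and was the only one of the 7 members to hold any in the windows searched. Among all 32851 RefSeq windows, searched over the same 250 bases before the start, 3.45% held it. The Slc6a11 window was 71.2% G and C and held 3 GC boxes, an element found in 32.7% of windows, while the Slc7a11 window was 43.2% G and C and held none. Glud1 held 3 GC boxes as well, Slc6a9 up to 2 in a window, Glul and Slc1a3 1 each, and the Slc1a2 window none. That Slc1a2 window began at chr2:102706188, inside the gene, whose RefSeq span starts at 102658239. Bases before the outer start of Slc1a2 were therefore not searched. Both strands were searched, and a match is a stretch of letters and not a measured site.

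The libraries held 4012358 to 9698571 counted reads (median 6111322), and mitochondrial ribosomal RNA took 12.3% to 29.7% of them. Defining astrocyte markers were present in every group: 11 or 12 of 13 listed genes reached a level of 1 on the exon scale defined below, and Gjb6 was at 0 in the P53 DMSO, HBEGF withdrawal and day 2 groups. Transcripts of other cells moved with the treatments. The summed level of 6 dividing-cell markers, led by Mki67, was 312 to 345 exon RPKM in EGFR DMSO and 56.8 to 65.4 with the inhibitor, and 143 to 381 with HBEGF and 46.0 to 49.8 without it. That of 7 oligodendrocyte precursor markers was 360.5 to 467 and 140.5 to 172 in the same EGFR groups, and 448 to 481 and 124 to 125 with and without HBEGF. The summed level of 16 neuronal markers, 3 of which were at 0 in some groups, was 10.2 to 13.3 and 76.9 to 84.2 in the EGFR groups, led by Dlx1 with the inhibitor, and 17.0 to 43.8 and 49.3 to 56.0 with and without HBEGF. For 10 microglial markers, led by Lyz2 and with Tmem119 at 0, it was 1.75 to 3.11 and 9.53 to 20.9 in the EGFR groups, and 0.336 to 1.09 and 46.0 to 97.8 with and without HBEGF. For 8 oligodendrocyte markers it was 40.2 to 84.8 with HBEGF, led by Cnp, and 152.5 to 165 without it, led by Mbp. For 13 astrocyte markers, none of them among the 9 genes, it was 353 to 436 in EGFR DMSO and 900.2 to 953 with the inhibitor, and 416 to 420.0 with HBEGF and 719 to 745 without it, led by Gfap in both treated groups. Ependymal or choroid markers (4 genes, led by Foxj1) summed to 4.38 to 5.16 and 27.4 to 35.1 in the EGFR groups. With and without HBEGF they summed to 7.18 to 10.4 and 54.0 to 65.6. Pericyte markers (5 genes, led by Pdgfrb, with Kcnj8 at 0) summed to 1.1 to 1.92 and 9.14 to 10.99, and to 1.55 to 2.21 and 10.4 to 12.6. Most of these treated sums came from the leading gene. Foxj1 averaged 30.69 with the EGFR inhibitor and 57.83 on withdrawal, and Pdgfrb 8.455 and 11.03. The rises of these sums therefore rest largely on Foxj1 and Pdgfrb and do not by themselves show more cells of a type. The part of these cell markers in the results below was not tested, and in bulk RNA fewer cells of a type and less RNA per cell cannot be told apart.

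The deposited values are RPKM, read counts scaled to library size and gene length, in which the length used was the whole genomic span with introns. Dividing by that length gave low values to long genes, so each read count was recovered and set against the length of the exons in the same way. Levels below are these RPKM per exon length (exon RPKM) unless given as RPKM, while tests used the deposited RPKM. The gap was smallest for Glul, whose span is 2.94 times its exons, and largest for Slc7a11, whose span of 551089 bases in the GENCODE annotation is 39.6 times its exons and 4.11 times its RefSeq span.

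**Figure D1:**
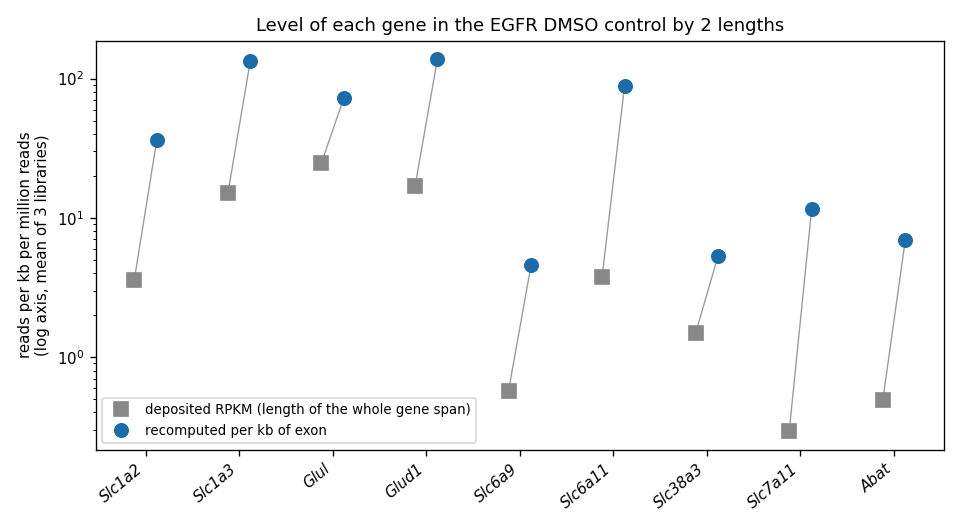
Mean level of each gene in the 3 EGFR DMSO libraries, on a log axis, as deposited RPKM (grey squares, length of the whole gene span) and recomputed per kilobase of exon (blue circles). Glul leads by the deposited values at 24.8, while Glud1 at 138 and Slc1a3 at 134 lead per kilobase of exon, and Slc7a11 moves from 0.294 to 11.6.

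Per kilobase of exon, glutamate dehydrogenase and GLAST were the most abundant of the 9 transcripts in every group. Glud1 (ENSMUSG00000021794.16, chr14:34310727-34345265 on GRCm38) ranged over the group means from 90.2 exon RPKM on day 2 to 230.1 with the EGFR inhibitor. Slc1a3 (ENSMUSG00000005360.14, chr15:8634124-8710764) ranged from 106 exon RPKM on HBEGF withdrawal to 172 on day 7. Glul (ENSMUSG00000026473.15, chr1:153899944-153909723) lay between 57.3 exon RPKM and 119, with the day 2 and EGFR inhibitor groups again at the ends. Slc6a11 (ENSMUSG00000030307.8, chr6:114131241-114249952) had the widest range of these 4 transcripts as a ratio, from 18.9 exon RPKM on withdrawal to 112 in P53 DMSO.

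Slc1a2 (ENSMUSG00000005089.15, chr2:102658659-102790784) stayed below Slc1a3 in each of the 25 libraries, with group means from 18 exon RPKM on day 2 to 70.5 with the EGFR inhibitor. The remaining transcripts were scarcer. Group means of Slc7a11 (ENSMUSG00000027737.10, chr3:49892526-50443614) lay between 9.95 and 21.5 exon RPKM. Those of Abat (ENSMUSG00000057880.12, chr16:8513429-8621568) between 3.28 and 23.7. Those of Slc38a3 (ENSMUSG00000010064.15, chr9:107650634-107669530) between 3.51 and 10.9, and those of Slc6a9 (ENSMUSG00000028542.17, chr4:117834506-117875198) between 1.75 and 8.31. Slc6a9 rested on 40 to 367 reads a library and shares exonic bases with B4galt2 on the opposite strand, which had 104 to 342. Whether counting used the strand is unstated in the sources used here, so reads over the shared bases cannot be told apart. The other members rested on 65 to 12298 reads, Slc38a3 and Abat being the lowest, and the exonic neighbours of Slc1a2 (Gm13872) and Glul (Teddm2, Mir8114) had at most 42 reads.

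**Figure D2:**
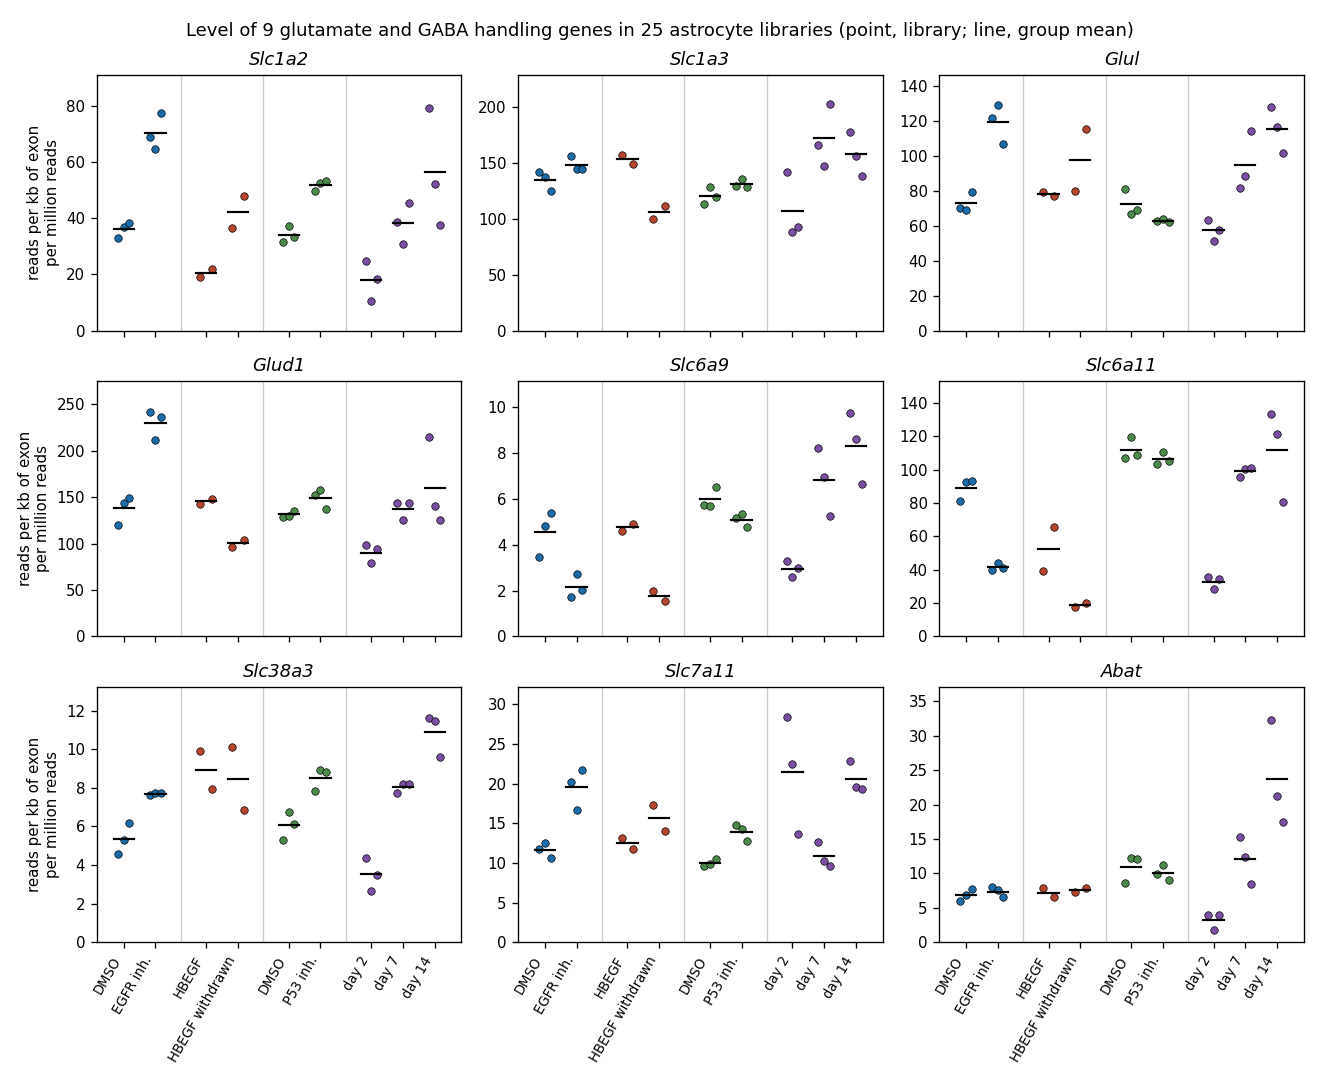
Level of each of the 9 genes in every library, in exon RPKM on linear axes from 0; points are libraries, lines group means, and colours the 4 experiments. Slc6a11 and Slc6a9 lie lower in the EGFR inhibitor and HBEGF withdrawal libraries than in their controls, and Slc7a11 is lower on day 7 than on days 2 and 14.

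Of the 9 members, 8 reached 1 RPKM in at least 2 libraries and were tested on log2(RPKM + 1), Slc6a9 and Abat only through their day 7 or day 14 libraries. Slc7a11, at no more than 0.716 RPKM, did not, and its changes come from a test of the recovered reads. A log2(RPKM + 1) change understates the change of genes near 1 RPKM, so folds are ratios of group means. In brackets, log2 before a value marks a log2 change.

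With the EGFR inhibitor the transcripts for GLT-1, glutamine synthetase, glutamate dehydrogenase and SNAT3 rose, and those for the GABA transporter GAT-3 and the glycine transporter GlyT1 fell. Against DMSO, 4 of the 8 tested members rose and 2 fell, with 38.5% of the 13850 tested genes called in either direction (16.3% higher and 22.2% lower). The 6 of 8 members called thus stood beside a broad response. In the test on reads 7 of 9 passed, where 47.2% of genes did, the additional one being Slc7a11.

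Slc1a2 measured 33.1, 37 and 38.2 exon RPKM in the DMSO libraries and 69.2, 64.7 and 77.7 with the inhibitor. The groups did not overlap, and the inhibitor mean was 1.95-fold higher, a log2 change of 0.80 ± 0.19 (SE, adjusted p = 0.00257). Slc1a3, the transporter more typical of immature astrocytes, measured 142, 137 and 124 exon RPKM in DMSO and 156, 144 and 144 with the inhibitor, a log2 change of 0.13 ± 0.14 (SE, adjusted p = 0.487) that did not pass, though it did after quantile normalization (log2 0.39, adjusted p = 0.042) and on reads with the EGFR libraries alone (log2 0.15, adjusted p = 0.0423). The library ranges of Slc1a3 sat next to each other without crossing, as they did for 50.3% of the tested genes in this comparison.

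Glul, whose product makes glutamine from glutamate, stood at 70.1, 69.2 and 79.5 exon RPKM in DMSO and at 122, 129 and 107 with the inhibitor. All 3 inhibitor libraries were above all 3 controls, 1.64-fold higher in mean, with a log2 change of 0.69 ± 0.14 (SE, adjusted p = 0.000632). Glud1 went from 120.1, 144 and 149 exon RPKM in DMSO to 242, 212 and 236 with the inhibitor, again without overlap, 1.67-fold higher with a log2 change of 0.71 ± 0.14 (SE, adjusted p = 0.000584). Slc38a3, the glutamine exporter, rose from 4.55, 5.32 and 6.17 exon RPKM in DMSO to 7.61, 7.73 and 7.75 with the inhibitor, 1.44-fold, with the narrower spread among the treated libraries and a log2 change of 0.34 ± 0.11 (SE, adjusted p = 0.015). Its adjusted p was 0.0789 without DMSO library 1.

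Slc6a11, the GABA transporter, fell from 81, 92.6 and 93.1 exon RPKM in DMSO to 39.8, 44.2 and 40.9 with the inhibitor. Every treated library was far below the lowest control, the mean was 2.14-fold lower, and the log2 change was -0.79 ± 0.13 (SE, adjusted p = 8.82e-05). Slc6a9, the glycine transporter, fell from 3.44, 4.81 and 5.39 exon RPKM in DMSO to 1.7, 2.72 and 2.02 with the inhibitor, 2.12-fold lower, with a log2 change of -0.31 ± 0.09 (SE, adjusted p = 0.0151) on RPKM and of -1.09 ± 0.23 (SE, adjusted p = 0.00022) on reads. On RPKM its adjusted p became 0.072 without DMSO library 3, 0.0544 without inhibitor library 1 and 0.109 with the EGFR libraries alone. The GABA-degrading enzyme Abat measured 5.93, 6.89 and 7.8 exon RPKM in DMSO and 8.0, 7.57 and 6.53 with the inhibitor, overlapping ranges, with a log2 change of 0.03 ± 0.12 (SE, adjusted p = 0.867).

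Slc7a11 measured 11.8, 12.5 and 10.6 exon RPKM in DMSO and 20.2, 16.7 and 21.8 with the inhibitor. Every treated library was above every control, 1.68-fold higher in mean, and the test on reads gave a log2 change of 0.75 ± 0.18 (SE, adjusted p = 0.00156). Its heavy-chain partner Slc3a2, which brings the exchanger to the cell surface, moved the other way, from 10.5 ± 0.575 to 5.04 ± 0.342 RPKM (log2 -0.93, adjusted p = 0.000977).

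Several other amino acid transporters fell with the EGFR inhibitor. All 4 tested members of a list of 9 carriers of glutamate and neutral amino acids were lower, where 22.2% of all tested genes were. Their median log2 change was -1.06 against -0.02 over all tested genes. On reads 2 of 8 rose and 4 fell, where 47.2% of all genes were called. The serine and alanine carrier Slc1a4 went from 6.19 ± 0.958 to 2.13 ± 0.211 RPKM (log2 -1.19, adjusted p = 1.68e-06). The glutamine carrier Slc1a5 went from 1.05 ± 0.0896 to 0.151 ± 0.0178 RPKM (log2 -0.83, adjusted p = 3.7e-05). Slc7a5, the partner of Slc3a2 in large neutral amino acid exchange, went from 11.2 ± 0.725 to 1.62 ± 0.229 RPKM (log2 -2.22, adjusted p = 2.29e-06). Of 4 tested glutamine carriers, Slc38a1 rose (log2 0.46, adjusted p = 0.00714) while Slc38a2 (log2 -0.77, adjusted p = 0.0163) and Slc1a5 fell.

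Among the other enzymes of glutamate and GABA metabolism, 7 of 11 tested genes fell with the EGFR inhibitor and 1 rose. Of all tested genes 22.2% were lower and 16.3% higher. The aspartate aminotransferase Got1 went from 2.6 ± 0.166 to 0.456 ± 0.0917 RPKM (log2 -1.30, adjusted p = 6.11e-07). Asparagine synthetase Asns went from 4.4 ± 0.597 to 0.569 ± 0.0254 RPKM (log2 -1.78, adjusted p = 4.42e-05), and the proline pathway gene Aldh18a1 fell too (log2 -0.88, adjusted p = 7.06e-05). Oat, ornithine aminotransferase, was the one that rose, from 3.6 ± 0.365 to 9.29 ± 0.318 RPKM (log2 1.17, adjusted p = 9.76e-07). Gad1 and Gad2, which make GABA, were below the RPKM filter at means of 0.0698 and 0.0675 RPKM in DMSO and 0.286 and 0.581 with the inhibitor. Both rose in the test on reads (log2 changes 2.11 and 3.13, adjusted p = 0.00502 and 1.79e-05). The neuronal marker sums given above include Gad1 and Gad2, so those sums are not separate from this rise. The vesicular glutamate transporters Slc17a6, Slc17a7 and Slc17a8 had group means of at most 0.00929 RPKM in these 2 groups.

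In the glycine and serine list 5 of 10 tested enzymes fell and 1 rose, where 22.2% of all tested genes were lower and 16.3% higher. Psat1, 1 of the 5, is counted also among the enzymes above. The falls included Shmt2 (log2 -1.61, adjusted p = 1.93e-06), Dld (log2 -0.70, adjusted p = 4.49e-06), Shmt1 (log2 -0.88, adjusted p = 1.36e-05) and Gcsh (log2 -0.88, adjusted p = 0.000257). In the cystine and glutathione list 4 of 10 fell and 1 rose. Slc3a2, counted also among the carriers above, was 1 of the 4. The rise was in Gclm, a subunit of glutamate-cysteine ligase, from 3.73 ± 0.572 to 7.15 ± 0.136 RPKM (log2 0.79, adjusted p = 0.00604). The falls included the glutathione-cleaving enzyme Chac1, from 3.57 ± 0.445 to 0.49 ± 0.394 RPKM (log2 -1.65, adjusted p = 0.00215), and the amino acid response factor Atf4, from 55.7 ± 3.1 to 23.6 ± 2.95 RPKM (log2 -1.21, adjusted p = 0.00143). Of 7 tested sodium pump subunits, which supply the gradient that drives uptake, 4 rose and 1 fell. Fxyd6 (log2 0.70, adjusted p = 9.77e-06) and Fxyd1 (log2 2.12, adjusted p = 2.34e-05) were among those that rose, and Atp1b3 fell (log2 -0.70, adjusted p = 9.87e-05). None of 3 glutamate and GABA receptor genes tested on RPKM passed. On reads 5 of 21 rose and 4 fell, where 47.2% of all genes were called.

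**Figure D3:**
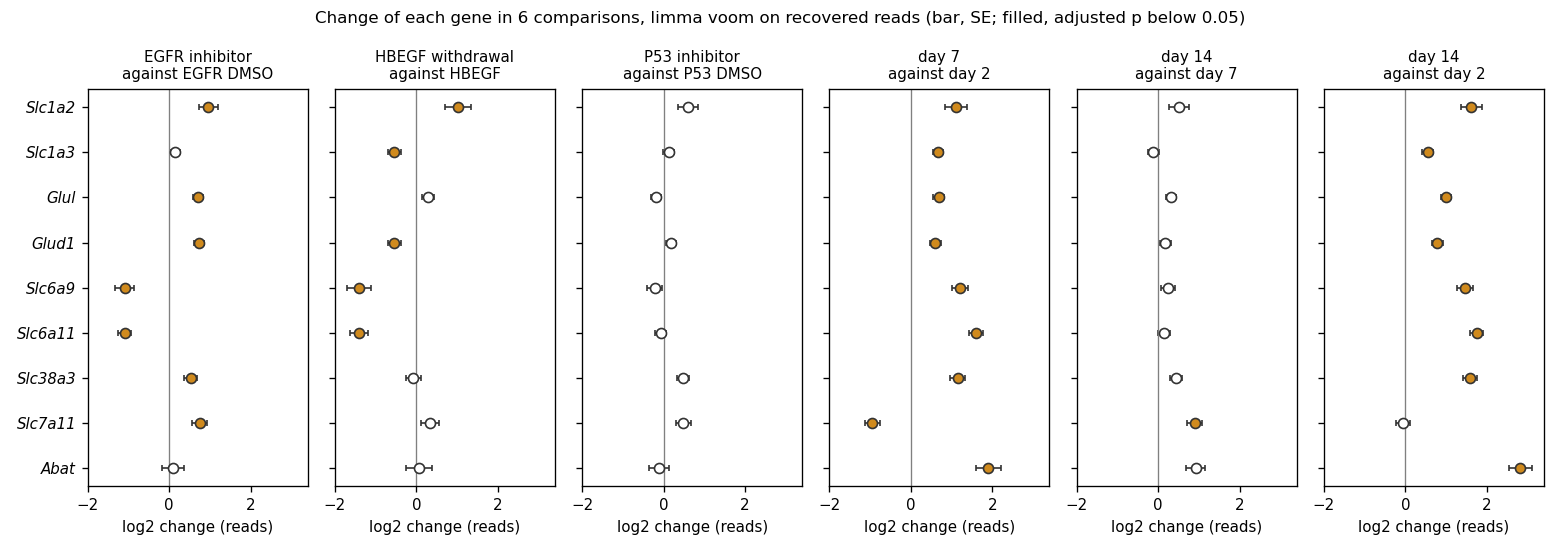
Log2 change of each gene in 6 comparisons, from the test on recovered reads; bars are standard errors and filled points have an adjusted p below 0.05. Slc6a11 changes by -1.09 with the EGFR inhibitor and -1.42 on HBEGF withdrawal but by 1.60 from day 2 to day 7, and Slc7a11 alone falls from day 2 to day 7 and then rises to day 14.

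On HBEGF withdrawal the GLT-1 transcript rose, and those for GLAST, glutamate dehydrogenase, GAT-3 and GlyT1 fell. Of 8 tested members 1 rose and 4 fell, beside 32.6% of all tested genes called (10.0% higher, 22.5% lower), and 5 of 9 passed in the test on reads, where 38.6% of genes did. Each group had 2 libraries. With these 4 libraries alone no member passed on RPKM, as for all genes (0%; 3926 genes had an unadjusted p below 0.05), while the same 5 members passed on reads, where 23.4% of genes did. The median log2 change of all genes was -0.10 on the deposited scale and 0.00 when mitochondrial genes were left out of the scaling, and the split of calls moved from 1390 higher and 3121 lower to 1977 and 2172.

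Slc1a2 measured 19.3 and 21.9 exon RPKM with HBEGF and 36.7 and 48.1 without it. Both withdrawal libraries were above both controls (ranges failed to overlap for 56.9% of tested genes here), 2.06-fold higher in mean, with a log2 change of 0.77 ± 0.23 (SE, adjusted p = 0.0165). Leaving out HBEGF library 1, HBEGF library 2 or withdrawal library 2 gave adjusted p of 0.0853, 0.0501 and 0.135. Slc1a3 moved the other way, 157 and 149 exon RPKM with HBEGF and 99.9 and 111 without it, 1.45-fold lower with a log2 change of -0.50 ± 0.17 (SE, adjusted p = 0.029). Glud1 went from 143 and 148 exon RPKM with HBEGF to 96 and 104 without it, 1.46-fold lower, with a log2 change of -0.51 ± 0.17 (SE, adjusted p = 0.0302). The falls of Slc1a3 and Glud1 did not pass after median-of-ratios scaling (adjusted p = 0.0924 and 0.106), after quantile normalization (0.617 and 0.623) or without mitochondrial genes in the scaling (0.199 and 0.19). Neither passed when any 1 of the 4 libraries was left out (adjusted p from 0.0566 to 0.143).

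Slc6a11 measured 39.3 and 65.8 exon RPKM with HBEGF and 17.9 and 19.9 without it. The HBEGF libraries differed from each other, but both were above both withdrawal libraries, and the mean was 2.78-fold lower on withdrawal, a log2 change of -0.82 ± 0.16 (SE, adjusted p = 0.000527). This call held when any 1 of the 4 libraries was left out. Slc6a9 fell from 4.6 and 4.9 exon RPKM with HBEGF to 1.96 and 1.55 without it, 2.71-fold, a log2 change of -0.39 ± 0.12 (SE, adjusted p = 0.0147) on RPKM and of -1.42 ± 0.29 (SE, adjusted p = 0.000291) on reads. On RPKM its adjusted p was 0.062 after quantile normalization, 0.0762 without HBEGF library 2 and 0.0779 without withdrawal library 2.

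Glul measured 79.4 and 77.2 exon RPKM with HBEGF and 80.03 and 115 without it, the 2 withdrawal libraries lying far apart, and its log2 change of 0.29 ± 0.17 (SE, adjusted p = 0.217) did not pass. It did pass after quantile normalization (log2 change 0.76, adjusted p = 0.00427), when mitochondrial genes were left out of the scaling (log2 change 0.49, adjusted p = 0.0297) and without withdrawal library 1 (0.54, adjusted p = 0.0348). Slc38a3 (9.91 and 7.94 exon RPKM with HBEGF, 10.1 and 6.85 without) and Abat (7.85 and 6.59 with HBEGF and 7.24 and 7.87 without it) overlapped between the groups, with log2 changes of -0.06 ± 0.13 (SE, adjusted p = 0.783) and 0.02 ± 0.15 (SE, adjusted p = 0.958). Slc7a11 measured 13.2 and 11.7 exon RPKM with HBEGF and 17.3 and 14.1 without it, a log2 change on reads of 0.33 ± 0.22 (SE, adjusted p = 0.255).

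The other pathway genes went both ways on withdrawal, where 10.0% of all tested genes were higher and 22.5% lower. The taurine transporter Slc6a6 rose, from 0.52 ± 0.0544 to 1.0 ± 0.247 RPKM (log2 0.39, adjusted p = 0.00901). Of 4 tested carriers of glutamate and neutral amino acids 3 fell. Slc7a5 went from 13.8 ± 3.17 to 3.68 ± 1.35 RPKM (log2 -1.67, adjusted p = 0.000386), Slc1a4 from 7.63 ± 0.60 to 3.83 ± 0.174 RPKM (log2 -0.83, adjusted p = 0.000553), and Slc1a5 from 1.24 ± 0.012 to 0.212 ± 0.0837 RPKM (log2 -0.89, adjusted p = 0.00021). Of 4 tested glutamine carriers Slc38a1 rose (log2 0.66, adjusted p = 0.00298) and Slc38a2 fell (log2 -1.02, adjusted p = 0.0122), with Slc1a5. Of 11 enzymes 6 fell, among them the serine pathway gene Psat1 (log2 -1.50, adjusted p = 1.04e-05), the mitochondrial aminotransferase Got2 (log2 -0.61, adjusted p = 0.000478) and Asns (log2 -1.65, adjusted p = 0.000781), and Oat rose (log2 0.72, adjusted p = 0.00101). Of 10 glycine and serine enzymes 6 fell, Psat1 again among them, and 1 rose. The falls included Dld (log2 -0.99, adjusted p = 1.91e-06) and Shmt2 (log2 -1.30, adjusted p = 0.000178). Of 10 cystine and glutathione genes 2 fell, including glutathione reductase Gsr (log2 -0.40, adjusted p = 0.0197). Of 7 sodium pump subunits 5 rose, including Fxyd1 from 1.34 ± 1.27 to 12.6 ± 3.32 RPKM (log2 2.63, adjusted p = 3.02e-05) and Atp1b2 from 27.8 ± 1.21 to 53.5 ± 3.59 RPKM (log2 0.92, adjusted p = 0.00875), and 1 fell. Of 3 receptor genes tested on RPKM the AMPA receptor subunit Gria2 fell (log2 -0.76, adjusted p = 0.000129) and the kainate receptor subunit Grik5 rose (log2 0.31, adjusted p = 0.039). On reads 3 of 21 receptor genes rose and 4 fell, where 38.6% of all genes were called.

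The response to the EGFR inhibitor and the response to HBEGF withdrawal differed for glutamate dehydrogenase. A test of the difference between the changes passed for 1 of 8 members, where 1.83% of genes did (176 positive and 77 negative differences, or 105 and 115 after median-of-ratios scaling): Glud1, 1.22 ± 0.22 (SE, adjusted p = 0.00834) on the log2 scale, inhibitor minus withdrawal. On the deposited scale this gene rose with the inhibitor and fell on withdrawal. The fall did not pass after median-of-ratios scaling (adjusted p = 0.106), quantile normalization (0.623) or scaling without mitochondrial genes (0.19). Nor did it pass on RPKM with the HBEGF experiment alone (0.095). On reads it passed, but not with median-of-ratios scaling (0.0536). A difference can pass from the rise alone, so it does not by itself show opposite responses. The Glud1 difference passed also in the test on reads (log2 1.28 ± 0.21 SE, adjusted p = 0.000707). Slc6a11 and Slc6a9 fell in both comparisons, and Slc1a2 rose in both. Their differences between the changes were 0.04 ± 0.20 (SE, adjusted p = 0.968), 0.08 ± 0.15 (SE, adjusted p = 0.847) and 0.03 ± 0.30 (SE, adjusted p = 0.985), and with these standard errors the values do not show that the treatments act alike.

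With the P53 inhibitor no member passed the test, and neither did most genes: 25 of 13850, or 0.181%, were called on RPKM and 0.684% on reads, with 1128 genes at an unadjusted p below 0.05 on RPKM. Of the 25 calls 4 were higher and 21 lower, or 12 and 28 after median-of-ratios scaling. Slc1a2 measured 31.6, 37.2 and 33.5 exon RPKM in its DMSO control and 49.97, 52.6 and 53.4 with the inhibitor, 1.52-fold higher without overlap, a log2 change of 0.49 ± 0.19 (SE, adjusted p = 0.448). Slc38a3 measured 5.3, 6.74 and 6.15 exon RPKM in DMSO and 7.84, 8.93 and 8.8 with the inhibitor (log2 0.33 ± 0.11 SE, adjusted p = 0.277). Slc7a11 measured 9.56, 9.83 and 10.5 exon RPKM in DMSO and 14.8, 14.2 and 12.8 with the inhibitor (log2 0.49 ± 0.19 SE, adjusted p = 0.351 on reads). For both, the inhibitor libraries were above the controls. Ranges failed to overlap for 20.3% of all tested genes in this comparison. When the 6 P53 libraries were tested alone on reads, an alternative chosen after the data were seen, these 3 members passed, where 6.32% of genes did. They were Slc1a2 (adjusted p = 3.99e-07), Slc38a3 (0.0119) and Slc7a11 (0.000125).

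The other 6 members lay closer to their P53 controls. Slc6a11 measured 107, 119.7 and 109 exon RPKM in DMSO and 104, 111 and 105 with the inhibitor (log2 -0.06 ± 0.13 SE, adjusted p = 0.977). Slc6a9 measured 5.74, 5.67 and 6.51 exon RPKM in DMSO and 5.18, 5.33 and 4.76 with the inhibitor (log2 -0.10 ± 0.09 SE, adjusted p = 0.88). Slc1a3 measured 113, 128 and 119.7 exon RPKM in DMSO and 129, 136 and 128 with the inhibitor (log2 0.11 ± 0.14 SE, adjusted p = 0.909). Glul measured 81.1, 66.8 and 69 exon RPKM in DMSO and 63, 63.7 and 62 with the inhibitor, the inhibitor libraries being just below the lowest control (log2 -0.19 ± 0.14 SE, adjusted p = 0.802). Glud1 measured 129, 130.0 and 135 exon RPKM in DMSO and 152, 157 and 137 with the inhibitor (log2 0.17 ± 0.14 SE, adjusted p = 0.839). Abat measured 8.64, 12.2 and 12 exon RPKM in DMSO and 9.9, 11.2 and 9.03 with the inhibitor (log2 -0.05 ± 0.12 SE, adjusted p = 0.98). No gene of the 9 pathway lists passed on RPKM. On reads 1 gene rose in each of the glutamate and GABA enzyme, cystine and glutathione, and sodium pump lists, where 0.684% of all genes were called. The dividing-cell markers summed to 188 to 204 in DMSO and 258 to 263 with the P53 inhibitor.

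The difference between the changes with the EGFR and the P53 inhibitor, each against its own DMSO, passed for 3 of 8 members, where 29.8% of genes did. It was 0.87 ± 0.19 (SE, adjusted p = 0.00234) for Glul, 0.54 ± 0.20 (SE, adjusted p = 0.0473) for Glud1 and -0.73 ± 0.18 (SE, adjusted p = 0.00498) for Slc6a11, and on reads Slc6a9 passed as well (log2 -0.87 ± 0.29 SE, adjusted p = 0.0182). The Glud1 value is close to the threshold: its adjusted p was 0.0504 with a pseudocount of 0.1, 0.0814 without a filter and 0.059 after median-of-ratios scaling. It was above 0.05 (0.0574 to 0.124) when any 1 of the 12 libraries was left out, other than EGFR DMSO library 3 and EGFR inhibitor library 2. Doses of the inhibitors are not known here and may not be matched.

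Over the first days in culture the transcripts for uptake and for glutamine and GABA metabolism rose and that for the cystine/glutamate exchanger fell. In the test on reads, whose filter every member passed in every library, 8 of 9 members rose from day 2 to day 7 and Slc7a11 fell, with 16.6% of genes called. On RPKM, 13.7% of tested genes were called and 4.12% were higher. Slc6a9 and Abat entered that test only through their later libraries, so they are not counted there, and the other 6 tested members all rose. Over all genes 571 were higher and 1328 lower, or 713 and 772 with mitochondrial genes left out of the scaling, and these calls held on each scale tried. With the 9 day libraries tested alone only Slc6a11 and Slc38a3 passed on RPKM (where 1.37% of genes did) and 8 of 9 on reads (all but Slc1a2, where 8.45% did). The comparisons between days share libraries and are not independent of one another.

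Slc6a11 measured 35.4, 28.3 and 34.2 exon RPKM on day 2 and 95.8, 101 and 101 on day 7. The ranges were far apart, 3.04-fold in mean, with a log2 change of 1.13 ± 0.13 (SE, adjusted p = 2.78e-05). Abat, which breaks down the GABA taken up, measured 4.01, 1.83 and 4.0 exon RPKM on day 2 and 15.2, 12.4 and 8.52 on day 7, 3.68-fold higher (log2 0.59 ± 0.12 SE, adjusted p = 0.00411 on RPKM, log2 1.91 ± 0.30 SE, adjusted p = 0.000208 on reads). Slc6a9 measured 3.27, 2.58 and 2.97 exon RPKM on day 2 and 8.23, 6.96 and 5.24 on day 7, 2.32-fold higher (log2 0.44 ± 0.09 SE, adjusted p = 0.00569 on RPKM). Abat and Slc6a9 met the RPKM filter only through later libraries, and both also passed on reads. Slc6a11, Abat and Slc6a9 all lay above their day 2 range in each day 7 library, as did every other member except Slc7a11. In this comparison 27.5% of tested genes did not overlap.

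Slc1a2 measured 25, 10.7 and 18.4 exon RPKM on day 2 and 38.7, 30.9 and 45.6 on day 7, 2.13-fold higher (log2 0.81 ± 0.19 SE, adjusted p = 0.00907). Slc1a3 measured 141, 88.1 and 92.2 exon RPKM on day 2 and 166, 147 and 202 on day 7, 1.60-fold higher (log2 0.66 ± 0.14 SE, adjusted p = 0.00457), with day 2 library 1 close to the lowest day 7 library. The glutamine cycle genes rose as well. Glul went from 63.2, 51.1 and 57.5 exon RPKM on day 2 to 81.8, 88.5 and 114 on day 7 (1.66-fold, log2 0.69 ± 0.14 SE, adjusted p = 0.00323). Slc38a3 went from 4.36, 2.68 and 3.5 exon RPKM on day 2 to 7.75, 8.2 and 8.22 on day 7 (2.29-fold, log2 0.72 ± 0.11 SE, adjusted p = 0.000266). Glud1 went from 98.3, 78.7 and 93.6 exon RPKM on day 2 to 144, 125 and 144 on day 7 (1.52-fold, log2 0.57 ± 0.14 SE, adjusted p = 0.0124). Without day 2 library 2, the lowest of that group for these genes, the adjusted p was 0.0638 for Slc1a2 and 0.0717 for Glud1.

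Slc7a11 fell from 28.4, 22.4 and 13.6 exon RPKM on day 2 to 12.7, 10.3 and 9.65 on day 7. The day 2 libraries varied by more than those of the later days, yet the lowest was above the highest day 7 library, and the mean was 1.98-fold lower, a log2 change on reads of -0.95 ± 0.18 (SE, adjusted p = 0.000883). Around it, 4 of 10 tested cystine and glutathione genes fell and none rose from day 2 to day 7. Of all 13850 tested genes 1328 were lower, or 772 with mitochondrial genes left out of the scaling. The list had a median log2 change of -0.36 against -0.05 for all genes. The 4 that fell were the redox factor Nfe2l2 (log2 -0.53, adjusted p = 0.00383), Gsr (log2 -0.49, adjusted p = 0.00466), cystathionine beta-synthase Cbs (log2 -0.68, adjusted p = 0.00691) and the catalytic ligase subunit Gclc (log2 -0.47, adjusted p = 0.00726).

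From day 7 to day 14 no tested member passed on RPKM, where 0.137% of genes did (7 genes higher and 12 lower, or 15 and 3 after median-of-ratios scaling, and 1483 at an unadjusted p below 0.05). Slc7a11 rose on reads, where 0.65% of genes passed, from 12.7, 10.3 and 9.65 exon RPKM on day 7 to 22.8, 19.5 and 19.3 on day 14, 1.89-fold and without overlap (as were 13.4% of tested genes), a log2 change of 0.90 ± 0.18 (SE, adjusted p = 0.0184). On log2(RPKM + 1) over genes with at least 10 reads it did not pass (adjusted p = 0.0976), nor on reads without day 14 library 1 (0.0924), day 7 library 2 (0.103) or day 7 library 3 (0.0815). With the day libraries alone its adjusted p on reads was 0.331. Its day 14 level did not differ detectably from day 2 (log2 -0.05 ± 0.17 SE, adjusted p = 0.864), although without day 2 library 3 it was lower (log2 -0.32, adjusted p = 0.0478). Abat measured 32.2, 21.3 and 17.5 exon RPKM on day 14, 1.96-fold its day 7 mean and without overlap, but with a log2 change of 0.52 ± 0.12 (SE, adjusted p = 0.12) that did not pass. On reads with median-of-ratios scaling, an alternative chosen after the data were seen, it did (log2 1.02, adjusted p = 0.0376). Slc38a3 measured 11.6, 11.5 and 9.61 exon RPKM on day 14, each library above the day 7 range (log2 0.31 ± 0.11 SE, adjusted p = 0.281).

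The rest overlapped between day 7 and day 14. On day 14 Slc1a2 measured 79.5, 52.4 and 37.8 exon RPKM, the widest spread of any of its groups, with a change since day 7 of 0.42 ± 0.19 (SE, adjusted p = 0.441). Glul measured 128, 116 and 102 exon RPKM (log2 0.28 ± 0.14 SE, adjusted p = 0.472). Glud1 measured 215, 141 and 125 exon RPKM (log2 0.18 ± 0.14 SE, adjusted p = 0.691), and Slc1a3 177, 156 and 138 (log2 -0.12 ± 0.14 SE, adjusted p = 0.815). Slc6a11 measured 134, 122 and 80.6 exon RPKM (log2 0.12 ± 0.13 SE, adjusted p = 0.783) and Slc6a9 9.72, 8.61 and 6.62 (log2 0.14 ± 0.09 SE, adjusted p = 0.633). Day 14 library 1 was the highest of its group for each of the 9 genes.

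Over the whole span, day 14 against day 2, 8 of 9 members rose on reads, where 28.5% of genes were called, and Slc7a11 did not pass. On RPKM, 23.2% of genes were called and 5.55% were higher, and the 6 tested members other than Slc6a9 and Abat all rose. The median log2 change of all genes was -0.11 here and -0.02 after median-of-ratios scaling, with which calls moved from 769 higher and 2439 lower to 1095 and 1324, and these calls held on each scale tried. Abat had the largest ratio, 7.23-fold (log2 1.11 ± 0.12 SE, adjusted p = 5.89e-06 on RPKM, log2 2.83 ± 0.29 SE, adjusted p = 4.62e-07 on reads). It was followed by Slc6a11 at 3.43-fold (log2 1.25 ± 0.13 SE, adjusted p = 3.11e-06), Slc1a2 at 3.14-fold (log2 1.23 ± 0.19 SE, adjusted p = 0.000183) and Slc38a3 at 3.10-fold (log2 1.03 ± 0.11 SE, adjusted p = 3.24e-06). Slc6a9, which met the RPKM filter only through later libraries and also passed on reads, was 2.83-fold higher (log2 0.58 ± 0.09 SE, adjusted p = 0.0003 on RPKM). Glul was 2.02-fold higher (log2 0.97 ± 0.14 SE, adjusted p = 7.83e-05) and Glud1 1.77-fold (log2 0.74 ± 0.14 SE, adjusted p = 0.000911). Slc1a3 rose least, 1.47-fold (log2 0.54 ± 0.14 SE, adjusted p = 0.00774), and its ranges overlapped; its adjusted p was 0.0502 without day 14 library 1, 0.0544 without day 2 library 2 and 0.126 with the day libraries alone, where Glud1 also missed the threshold (0.0545).

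Among the pathway genes, a GABA-degrading enzyme rose with time in culture and a taurine carrier fell. Succinate semialdehyde dehydrogenase (Aldh5a1), the step after Abat in GABA breakdown, rose from day 2 to day 7 (log2 0.42, adjusted p = 0.00698) and over the whole span, from 1.56 ± 0.0604 to 3.21 ± 0.578 RPKM (log2 0.71, adjusted p = 5.16e-05). So did the alanine aminotransferase Gpt2 (log2 0.65, adjusted p = 0.00617 and log2 0.78, adjusted p = 0.000685). Slc6a6 fell from 2.33 ± 0.105 to 0.232 ± 0.0518 RPKM (log2 -1.43, adjusted p = 1.73e-08). Got1 and the tricarboxylic acid cycle gene Ogdh fell over the span (log2 -0.57, adjusted p = 0.00359 and log2 -0.30, adjusted p = 0.00259). Of 11 tested enzymes 2 rose and 2 fell, where 23.2% of all tested genes were called. Serine racemase Srr rose (log2 0.49, adjusted p = 0.00136) and Shmt1 fell (log2 -0.53, adjusted p = 0.00326), the only calls among 10 glycine and serine enzymes on RPKM.

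Glutamine carriers split over the same days: Slc38a2 fell from 46.5 ± 5.27 to 22.3 ± 7.35 RPKM (log2 -1.08, adjusted p = 0.00326) and Slc1a5 from 1.66 ± 0.516 to 0.607 ± 0.286 RPKM (log2 -0.72, adjusted p = 0.000389). Slc38a1 rose (log2 0.45, adjusted p = 0.0156). Of 7 sodium pump subunits 3 rose and 2 fell over the span, where 23.2% of all tested genes were called. The rises included the astrocyte subunit Atp1b2, from 20.2 ± 5.55 to 45.2 ± 14.2 RPKM (log2 1.11, adjusted p = 0.000759), and the falls Atp1b1 (log2 -0.59, adjusted p = 0.00529). Of 10 cystine and glutathione genes 5 were lower on day 14 than on day 2, where 2439 of 13850 tested genes were, or 1324 after median-of-ratios scaling. The 5 included Gsr (log2 -0.57, adjusted p = 0.000582), Cbs (log2 -0.76, adjusted p = 0.0014), Gclc (log2 -0.49, adjusted p = 0.00284) and Nfe2l2 (log2 -0.44, adjusted p = 0.00567). Gria2 rose (log2 0.40, adjusted p = 0.0071), and on reads 8 of 21 receptor genes rose and 4 fell, where 28.5% of all genes were called. Dividing-cell markers summed to 287 to 416 on day 2, 53.2 to 243 on day 7 and 140 to 236 on day 14, and neuronal markers to 17.9 to 30.3, 10.4 to 42.3 and 9.38 to 13.5. The 13 astrocyte markers summed to 229 to 339, 426 to 503 and 510.0 to 783 on the same days, and the 10 microglial markers to 3.52 to 9.51, 0.916 to 2.35 and 0.666 to 0.972.

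Ratios within a library do not depend on its depth. The ratio of Slc1a2 to Slc1a3, both per kilobase of exon, was 0.234 to 0.307 in EGFR DMSO and 0.445 to 0.539 with the inhibitor, and 0.123 to 0.147 with HBEGF and 0.367 to 0.432 without it. It was 0.28 to 0.29 in P53 DMSO and 0.388 to 0.417 with that inhibitor, and 0.121 to 0.20, 0.21 to 0.233 and 0.273 to 0.448 on days 2, 7 and 14. The ratio of GLT-1 to GLAST transcripts was higher in every library of each treated group than in its controls, and higher on each later day than on the one before, with no overlap. The ratios were not tested.

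The ratio of Slc6a11 to Slc1a3 was lower in all 3 treated groups than in their controls, 0.572 to 0.749 in DMSO against 0.255 to 0.306 with the inhibitor, and 0.251 to 0.442 with HBEGF against 0.179 in both withdrawal libraries. In the P53 experiment it was 0.911 to 0.948 in DMSO and 0.803 to 0.818 with the inhibitor. It was 0.251 to 0.371 on day 2 and 0.582 to 0.778 on day 14. The ratio of Glud1 to Slc1a3 was 0.848 to 1.2 in DMSO and 1.47 to 1.64 with the EGFR inhibitor, without overlap. It was 0.912 to 0.996 with HBEGF and 0.935 to 0.961 without it, the withdrawal libraries lying within the range of the controls.

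**Figure D4:**
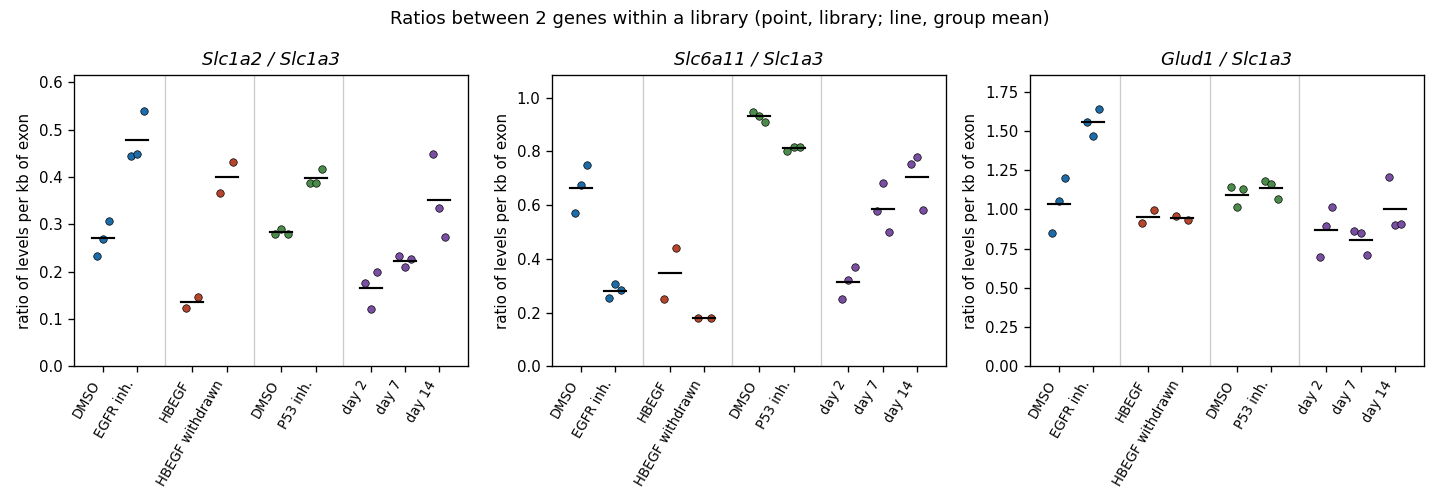
Ratios between 2 genes within each library, per kilobase of exon, on linear axes from 0; points are libraries and lines group means. Slc1a2 to Slc1a3 is higher with the EGFR inhibitor, on HBEGF withdrawal and on day 14 than in the matching control or on day 2, Glud1 to Slc1a3 is higher with the EGFR inhibitor, and Slc6a11 to Slc1a3 is lower in each treated group than in its control and higher on day 14.

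Across the 9 group means, the members did not move as a block. Of the 36 pairs among them, Slc6a9 and Slc6a11 were the most alike (Pearson r = 0.89 of the mean log2(RPKM + 1)) and Slc6a11 and Slc7a11 the least (r = -0.45). These are descriptions over 9 points from experiments that share a tissue, a method and a table. The genes most alike to each member, among those reaching 5 RPKM in at least 1 group, were Plpp3 for Slc1a2 (r = 0.94), Cstf2t for Slc1a3 (0.94), Snapin for Glul (0.96), Arxes2 for Slc6a9 (0.98) and Scd2 for Slc6a11 (0.97). The highest for Glud1 was the endothelin receptor Ednrb (0.94). For Slc38a3 it was Hepacam (0.88), the protein used to capture the cells, for Abat it was Dag1 (0.97), and for Slc7a11, the member with the weakest likeness to any gene, Smcr8 (0.84). Mid1ip1 and Pcdhgc3 were among the first 3 for both Slc6a11 (0.97 and 0.96) and Slc6a9 (0.94 and 0.96).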

How the data were processed

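Total RNA was converted to cDNA with the Ovation RNA-seq V2 system and made into Illumina libraries, per the labels' protocols. STAR, HTSeq, edgeR and limma and the build GRCm38 are named in the submitters' processing notes; versions, annotation release and strandedness are unstated in the sources used here. The deposited table holds RPKM, made by the authors from counts per gene. Tested on the values, RPKM multiplied by a length of gene end minus start in GENCODE M21 gave whole reads (within 0.1 of a read) for 99.3% to 99.4% of values up to 20 reads, so the reads per library and gene were recovered from the RPKM.

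Group means of log2(RPKM + 1) in all 25 libraries were fitted with limma 3.58.1 (R 4.3.3; 16 residual degrees of freedom, trended robust empirical Bayes) over 13850 genes with at least 1 RPKM in at least 2 libraries, with Benjamini-Hochberg adjustment and a threshold of 0.05. Reads were tested with limma's voom over 17843 genes with at least 10 reads in 2 libraries. Both fits were tested on simulated data. The 9 genes, the lists, and the tests were chosen with earlier results of these data known. Named pathway genes are up to 4 called genes a list with the smallest adjusted p and a mean of at least 1 RPKM, plus Gad1, Gad2 and the vesicular transporters. A few genes of the lists are not reported here. The genes most alike to a member were ranked by Pearson r over the 9 group means. Alternatives changed the pseudocount, filter, scaling, length, variance model or libraries used, or added the replicate block. Replicate numbers were checked for pairing over 2354 genes: deviations of same-numbered libraries correlated above 0.1 in every pair for day 14 against day 2 (0.152, 0.278 and 0.162) and in no other comparison.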

Additional observations from a re-analysis of the deposited data

Results flagged for a closer look

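Tests of the difference between responses picked out 4 values. Glud1 changed by 1.22 more (log2) with the EGFR inhibitor than on HBEGF withdrawal (adjusted p = 0.00834). Between the EGFR and P53 inhibitors the difference was 0.87 for Glul (adjusted p = 0.00234), 0.54 for Glud1 (0.0473) and -0.73 for Slc6a11 (0.00498). No group held more than 3 libraries, so no single library was screened as far from the rest of its group.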

How the results depend on the processing

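Of 1204 values of single members under alternatives, 1115 kept their direction and side of the threshold, 66 lost the threshold, 11 gained it and 12 changed sign, none of the last having passed. In the HBEGF comparison the 5 members called became 3 after median-of-ratios scaling, 3 after quantile normalization, 0 with its 4 libraries alone, and 1 to 4 without 1 library (2 without HBEGF library 1, 1 without HBEGF library 2 or withdrawal library 2). From day 2 to day 7 the 8 became 5 with a filter of 5 RPKM, which left 5 tested, 2 with the day libraries alone, and 6 to 8 without 1 library. From day 2 to day 14 they became 5 with that filter, 6 with the day libraries alone and 7 with array weights. They were 7 without day 14 library 1 or day 2 library 2. Both counts of 8 include Slc6a9 and Abat, which met the filter of 1 RPKM only through later libraries and were not counted above. From day 7 to day 14 the 0 became 1 on exon-length RPKM, 1 on log2(CPM + 1) and 1 on reads, Slc7a11 each time, and 2 on reads with median-of-ratios scaling, Abat being the other. With the P53 inhibitor the 0 became 3 on reads with its libraries alone. The last 2 settings, and the leave-one-out tests of Slc7a11 on reads, were chosen after seeing the data. The cause of these shifts was not tested, beyond the smaller number of genes or libraries that some settings use.

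Changes of sign were, for Slc38a3 on HBEGF withdrawal, 0.037 (median-of-ratios), 0.031 (quantile), 0.090 (no mitochondrial genes), 0.058 (reads with median-of-ratios) and from -0.26 to 0.14 without 1 library; for Abat there, from -0.019 to 0.066 without 1 library; for Slc6a11 with the P53 inhibitor, 0.0096 (quantile). From day 7 to day 14 Slc1a3 ran from -0.21 to 0.0023 and Glud1 from -0.044 to 0.33 without 1 library. From day 2 to day 14 Slc7a11 was 0.11 on reads with median-of-ratios scaling and ran from -0.32 to 0.22 without 1 library. With the replicate block the counts of called members were 6, 5, 0, 8, 0 and 8 in the 6 comparisons, as without it, the counts of 8 again including Slc6a9 and Abat. For the EGFR against P53 difference the count was 2 rather than 3, Glud1 going to an adjusted p of 0.0558. Precision is limited by 2 libraries a group in the HBEGF experiment and by 40 to 367 reads for Slc6a9.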
